A study of Mus musculus with 2 samples.

Results

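Checkpoint ligands and costimulatory molecules are surface and secreted proteins through which myeloid cells start or restrain T cells. Of 32285 genes in the files, 8 were followed by name: Cd274, Pdcd1lg2, Cd80, Cd86, Cd40, Vsir, Havcr2 and Lgals9. All 8 were measured in both single-cell libraries, in cells with at least 500 unique molecular identifiers (UMIs), at least 250 genes and at most 10% mitochondrial UMIs. The libraries hold CD11b+ gingival cells of mice that carried either 10% Tet2-/- or 10% Tet2+/+ bone marrow after transplantation (BMT). The Tet2 protein helps to remove methyl marks from DNA. In both groups a ligature around a tooth induced periodontitis for 5 days, starting 12 weeks after the transplantation. The 10% Tet2-/- BMT cells were sorted as CD45.2+CD11b+ and the 10% Tet2+/+ BMT cells as CD45+CD11b+ by the protocol, while the title of the 10% Tet2+/+ BMT sample also reads CD45.2+CD11b+. The labels do not state what the rest of the marrow was, the deleted part of Tet2, or how many mice were pooled, and nothing in the files marks which cells descend from the Tet2-/- marrow.

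With 1 library in each group, how far animals differ is unknown, and no test was made. Levels are counts in CPM, the UMIs of a gene per 1000000 UMIs of a cell class in a library. The 95% intervals cover counting error only: those of levels are exact under a Poisson model, those of ratios exact given the summed UMIs, and those of shares of cells Clopper-Pearson. Ratios are 10% Tet2-/- BMT over 10% Tet2+/+ BMT. A difference is counted as past the size rule when the log2 ratio with 10 CPM added to each level exceeds 1.5-fold, among genes with at least 50 CPM in either library and 100 UMIs over both. Printed ratios carry no added CPM.

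The kept cells numbered 9596 in 10% Tet2-/- BMT and 11672 in 10% Tet2+/+ BMT, with a median of 5920 and 5009 UMIs. The libraries shared 31 cell barcodes. They also differed in sex-linked transcripts: in 10% Tet2-/- BMT, 4320 cells carried Xist alone and 553 carried Y-linked transcripts alone, against 3 and 6885 cells in 10% Tet2+/+ BMT. Tet2 itself was at 97.8 CPM in 10% Tet2-/- BMT and 81.7 CPM in 10% Tet2+/+ BMT, and a 3' count of a partly deleted gene checks nothing about the genotype. Clusters made without the 8 genes gave 11 named classes and 5 unnamed clusters. The largest classes were neutrophil-like cells (4011 in 10% Tet2-/- BMT and 4909 in 10% Tet2+/+ BMT), immature neutrophil-like cells (1311 and 1172), monocyte-like cells (1236 and 1188), macrophage-like cells (732 and 771) and dendritic-like cells (245 and 229).

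T cells need a signal through the antigen receptor and another through CD28, which binds CD80 and CD86 on the presenting cell. CTLA-4 competes for the same ligands, and PD-1 on the T cell answers to PD-L1 (encoded by Cd274) and PD-L2 (encoded by Pdcd1lg2) by damping that signal. CD40 receives CD40 ligand from helper T cells and drives the presenting cell to make more CD80, CD86 and cytokines. VISTA (encoded by Vsir) restrains T cells from the surface of myeloid cells, and TIM-3 (encoded by Havcr2) is an inhibitory receptor of T cells and dendritic cells for which galectin-9 (encoded by Lgals9) is a described ligand. In many tissues, interferon-gamma and NF-kB signals raise the transcription of Cd274.

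Cd274 (ENSMUSG00000016496) lies on chromosome 19 of mm10 from 29367455 to 29388095, plus strand. Pdcd1lg2 (ENSMUSG00000016498) starts 22824 bp beyond its end, at 29410919 to 29471161 on the same strand. Cd80 (ENSMUSG00000075122) and Cd86 (ENSMUSG00000022901) share chromosome 16, at 38455561 to 38496335 on the plus strand and 36603869 to 36666081 on the minus strand. Cd40 (ENSMUSG00000017652) is on chromosome 2, 165055627 to 165072948, and Vsir (ENSMUSG00000020101) on chromosome 10, 60346851 to 60372684, both on the plus strand. Havcr2 (ENSMUSG00000020399) and Lgals9 (ENSMUSG00000001123) are both on chromosome 11, at 46454935 to 46481255 on the plus strand and 78962974 to 78984946 on the minus strand.

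The RefSeq promoter table for GRCm38.p6, with 250 bases before and 50 bases after each start, held 6 of the 8 genes, Cd86 and Cd40 being without an entry. The neighbours Cd274 and Pdcd1lg2 are shown because their highest levels among named classes, given next, were in different classes. Both were high in mature Ccr7 dendritic-like cells, described further on. Lgals9 is shown because its highest neutrophil cluster was led by the interferon-induced gene Ifit1. Capitals mark matches, on either strand, to the interferon-stimulated response element (GAAA, any 2 bases, then GAAA) or to the NF-kB motif, and the gamma-activated site TTCNNNGAA was searched as well. These 3 motifs are found in 3.44%, 8.46% and 8.3% of 32851 promoters of that length.
Cd274 promoter (chr19:29367188-29367487, plus strand): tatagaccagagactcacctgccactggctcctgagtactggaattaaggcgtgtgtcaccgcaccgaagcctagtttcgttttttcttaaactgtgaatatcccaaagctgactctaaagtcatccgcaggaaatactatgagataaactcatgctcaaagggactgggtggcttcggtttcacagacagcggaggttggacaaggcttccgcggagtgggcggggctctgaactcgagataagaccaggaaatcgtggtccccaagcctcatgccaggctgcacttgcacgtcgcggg
Pdcd1lg2 promoter (chr19:29410669-29410968, plus strand): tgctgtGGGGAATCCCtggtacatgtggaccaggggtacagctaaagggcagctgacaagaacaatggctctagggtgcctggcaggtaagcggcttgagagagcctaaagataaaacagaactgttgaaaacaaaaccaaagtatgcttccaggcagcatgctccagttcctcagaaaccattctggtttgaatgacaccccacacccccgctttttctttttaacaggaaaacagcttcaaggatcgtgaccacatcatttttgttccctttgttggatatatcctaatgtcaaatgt
Lgals9 promoter (chr11:78984875-78985174, minus strand): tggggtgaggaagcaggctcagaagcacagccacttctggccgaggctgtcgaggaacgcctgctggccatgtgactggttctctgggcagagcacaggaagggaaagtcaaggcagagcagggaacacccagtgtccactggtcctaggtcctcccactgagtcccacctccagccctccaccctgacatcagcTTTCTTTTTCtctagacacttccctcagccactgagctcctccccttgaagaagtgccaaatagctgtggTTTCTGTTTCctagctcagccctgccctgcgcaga

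Counting the first transcribed base of the RefSeq entry as 1 and the base before it as -1, Lgals9 held 2 interferon-stimulated response elements, at -55 to -46 and at 16 to 25. Pdcd1lg2 held 1 NF-kB motif, at -244 to -235. Cd274, Cd80, Vsir and Havcr2 held no match to the 3 motifs in this window. The window of Cd80, at 38458683 to 38458982, lies inside the gene as placed above and does not cover the start at 38455561. A match of letters is not evidence that a factor binds.

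The 8 genes fell into different classes of cells. Among named classes with at least 50 cells in each library, Cd274 and Cd80 were highest in neutrophil-like cells, Cd86 and Lgals9 in macrophage-like cells and Havcr2 in dendritic-like cells. Vsir was highest in neutrophil-like and immature neutrophil-like cells and Cd40 in B cell-like and macrophage-like cells. Pdcd1lg2 was low in every myeloid class.

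Cd274 was at 87.9 CPM (83.6 to 92.4) in 10% Tet2-/- BMT and 59.1 CPM (55.9 to 62.5) in 10% Tet2+/+ BMT in neutrophil-like cells. The next classes in order were B cell-like cells at 49.8 CPM in 10% Tet2-/- BMT and 31.7 CPM in 10% Tet2+/+ BMT, and dendritic-like cells at 54.0 CPM in 10% Tet2-/- BMT and 26.6 CPM in 10% Tet2+/+ BMT. The intervals of neutrophil-like cells lay above those of B cell-like cells in both libraries, while the classes from B cell-like through dendritic-like, NK cell or ILC-like and macrophage-like down to T cell-like cells each overlapped the class above them in both. Monocyte-like cells were lower, at 22.6 CPM in 10% Tet2-/- BMT and 17.1 CPM in 10% Tet2+/+ BMT. Immature neutrophil-like cells, which still make granule proteins, held least, at 11.8 CPM in 10% Tet2-/- BMT and 5.31 CPM in 10% Tet2+/+ BMT. Free RNA in barcodes with 1 to 50 UMIs had Cd274 at 51.8 CPM in 10% Tet2-/- BMT and 33.3 CPM in 10% Tet2+/+ BMT. Of these classes only neutrophil-like cells lay above free RNA in both libraries.

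A Cd274 UMI was seen in 19.7% of neutrophil-like cells in 10% Tet2-/- BMT and 15.3% in 10% Tet2+/+ BMT, at median depths of 3918 and 3857 UMIs. In immature neutrophil-like cells the share was 8.92% in 10% Tet2-/- BMT and 5.38% in 10% Tet2+/+ BMT, although their median depths of 11111 and 12522 UMIs were higher. With every cell thinned to 500 UMIs, the shares were 4.41% in 10% Tet2-/- BMT and 3.20% in 10% Tet2+/+ BMT in neutrophil-like cells, and 0.458% in 10% Tet2-/- BMT and 0.171% in 10% Tet2+/+ BMT in immature ones. No cell fell below that depth, since 500 UMIs was also the minimum for a cell. Neutrophil-like cells thus held Cd274 more often than immature ones at equal depth in each library.

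Pdcd1lg2 counts were small. NK cell or ILC-like cells had 21.5 CPM in 10% Tet2-/- BMT and 20.75 CPM in 10% Tet2+/+ BMT, from 15 and 26 UMIs, and B cell-like cells 20.5 CPM in 10% Tet2-/- BMT and 18.8 CPM in 10% Tet2+/+ BMT, from 65 and 84 UMIs. Neutrophil-like cells had 5.01 CPM in 10% Tet2-/- BMT and 2.86 CPM in 10% Tet2+/+ BMT, close to the level of free RNA in barcodes with 1 to 50 UMIs, which was 4.32 CPM in 10% Tet2-/- BMT and 3.33 CPM in 10% Tet2+/+ BMT. Macrophage-like cells had 1.57 CPM in 10% Tet2-/- BMT and 1.49 CPM in 10% Tet2+/+ BMT, below that level. PD-L2 transcript was therefore near background in these myeloid classes, and its highest myeloid level was in the mature dendritic-like cells described further on.

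Cd80 was at 141 CPM (135 to 147) in 10% Tet2-/- BMT and 100.4 CPM (96.2 to 104.7) in 10% Tet2+/+ BMT in neutrophil-like cells, above every other named class in each library. Dendritic-like cells came next with 40.5 CPM in 10% Tet2-/- BMT and 28.5 CPM in 10% Tet2+/+ BMT, followed by B cell-like cells with 30.6 CPM in 10% Tet2-/- BMT and 28.6 CPM in 10% Tet2+/+ BMT. Macrophage-like cells had 20.9 CPM in 10% Tet2-/- BMT and 26.1 CPM in 10% Tet2+/+ BMT. The transcript of this CD28 ligand was thus densest in neutrophil-like cells, with a UMI in 37.9% of them in 10% Tet2-/- BMT and 28.1% in 10% Tet2+/+ BMT, or 7.88% and 5.46% when thinned. In NK cell or ILC-like cells, deeper at medians of 7574 and 6151 UMIs, the unthinned share was 4.94% in 10% Tet2-/- BMT and 7.14% in 10% Tet2+/+ BMT.

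Cd86, the other CD28 ligand, had a different place. Macrophage-like cells had 193 CPM (183 to 202) in 10% Tet2-/- BMT and 191 CPM (181 to 201) in 10% Tet2+/+ BMT. Dendritic-like cells had 173 CPM (161 to 186) in 10% Tet2-/- BMT and 151 CPM (139 to 164) in 10% Tet2+/+ BMT, with intervals that overlap those of macrophage-like cells in 10% Tet2-/- BMT and not in 10% Tet2+/+ BMT. Neutrophil-like cells had 18.9 CPM in 10% Tet2-/- BMT and 22.0 CPM in 10% Tet2+/+ BMT, less than the free RNA level of 39.3 CPM in 10% Tet2-/- BMT and 33.8 CPM in 10% Tet2+/+ BMT. Cd86 and Cd80 therefore had their maxima in different named classes. The unnamed Arg1-led cluster held both, with Cd80 at 140 CPM in 10% Tet2-/- BMT and 138 CPM in 10% Tet2+/+ BMT and Cd86 at 175 and 227 CPM. Among named classes of at least 50 cells, Cd86 was lowest in immature neutrophil-like cells (4.37 CPM in 10% Tet2-/- BMT and 3.56 CPM in 10% Tet2+/+ BMT). A Cd86 UMI was seen in 67.3% of macrophage-like cells in 10% Tet2-/- BMT and 58.6% in 10% Tet2+/+ BMT, against 4.81% and 4.27% of immature neutrophil-like cells at similar or greater depth.

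Cd40, the receptor for helper T cell signals, was at 46.9 CPM in 10% Tet2-/- BMT and 44.9 CPM in 10% Tet2+/+ BMT in B cell-like cells. It was at 36.2 CPM (32.2 to 40.5) in 10% Tet2-/- BMT and 54.7 CPM (49.5 to 60.3) in 10% Tet2+/+ BMT in macrophage-like cells. Dendritic-like cells had 34.7 CPM in 10% Tet2-/- BMT and 38.2 CPM in 10% Tet2+/+ BMT. Neutrophil-like cells were nearly without it, with a UMI in 8 of 4011 cells in 10% Tet2-/- BMT and 30 of 4909 cells in 10% Tet2+/+ BMT, which is 0.455 and 1.41 CPM against 18.1 CPM of free RNA in each library.

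Vsir was spread over several myeloid classes. Neutrophil-like cells had 286 CPM in 10% Tet2-/- BMT and 304 CPM in 10% Tet2+/+ BMT, and immature neutrophil-like cells 274 CPM in 10% Tet2-/- BMT and 303 CPM in 10% Tet2+/+ BMT, with overlapping intervals in each library. Monocyte-like cells had 247 CPM in 10% Tet2-/- BMT and 246 CPM in 10% Tet2+/+ BMT, and macrophage-like cells 221 CPM in 10% Tet2-/- BMT and 227 CPM in 10% Tet2+/+ BMT. Dendritic-like cells were lower, at 82.6 CPM in 10% Tet2-/- BMT and 85.0 CPM in 10% Tet2+/+ BMT. The Vsir level in free RNA was 247 CPM in 10% Tet2-/- BMT and 254 CPM in 10% Tet2+/+ BMT. Its levels in lymphoid and dendritic-like cells, 79.8 to 136 CPM over both libraries, lay below that of free RNA. Macrophage-like cells were also below free RNA in each library, and monocyte-like cells were close to it. Of the classes given here, only neutrophil-like and immature neutrophil-like cells lay above free RNA in both libraries.

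Havcr2 was at 84.0 CPM (75.6 to 93.2) in 10% Tet2-/- BMT and 67.0 CPM (58.9 to 75.8) in 10% Tet2+/+ BMT in dendritic-like cells, above macrophage-like cells (48.5 CPM in 10% Tet2-/- BMT and 43.7 CPM in 10% Tet2+/+ BMT). T cell-like cells had 30.9 CPM in 10% Tet2-/- BMT and 22.4 CPM in 10% Tet2+/+ BMT, and neutrophil-like cells 6.20 CPM in 10% Tet2-/- BMT and 6.09 CPM in 10% Tet2+/+ BMT. Lgals9 was at 120 CPM (112 to 128) in 10% Tet2-/- BMT and 140 CPM (131 to 148) in 10% Tet2+/+ BMT in macrophage-like cells. This was above all other named classes of at least 50 cells in each library. The unnamed Siglecf-led cluster had 133 CPM in 10% Tet2-/- BMT and 119 CPM in 10% Tet2+/+ BMT. Among these named classes, the TIM-3 transcript and the transcript of its described ligand thus had their highest levels in separate antigen-presenting classes. Single clusters, described further on, had higher levels of each.

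**Figure D1:**
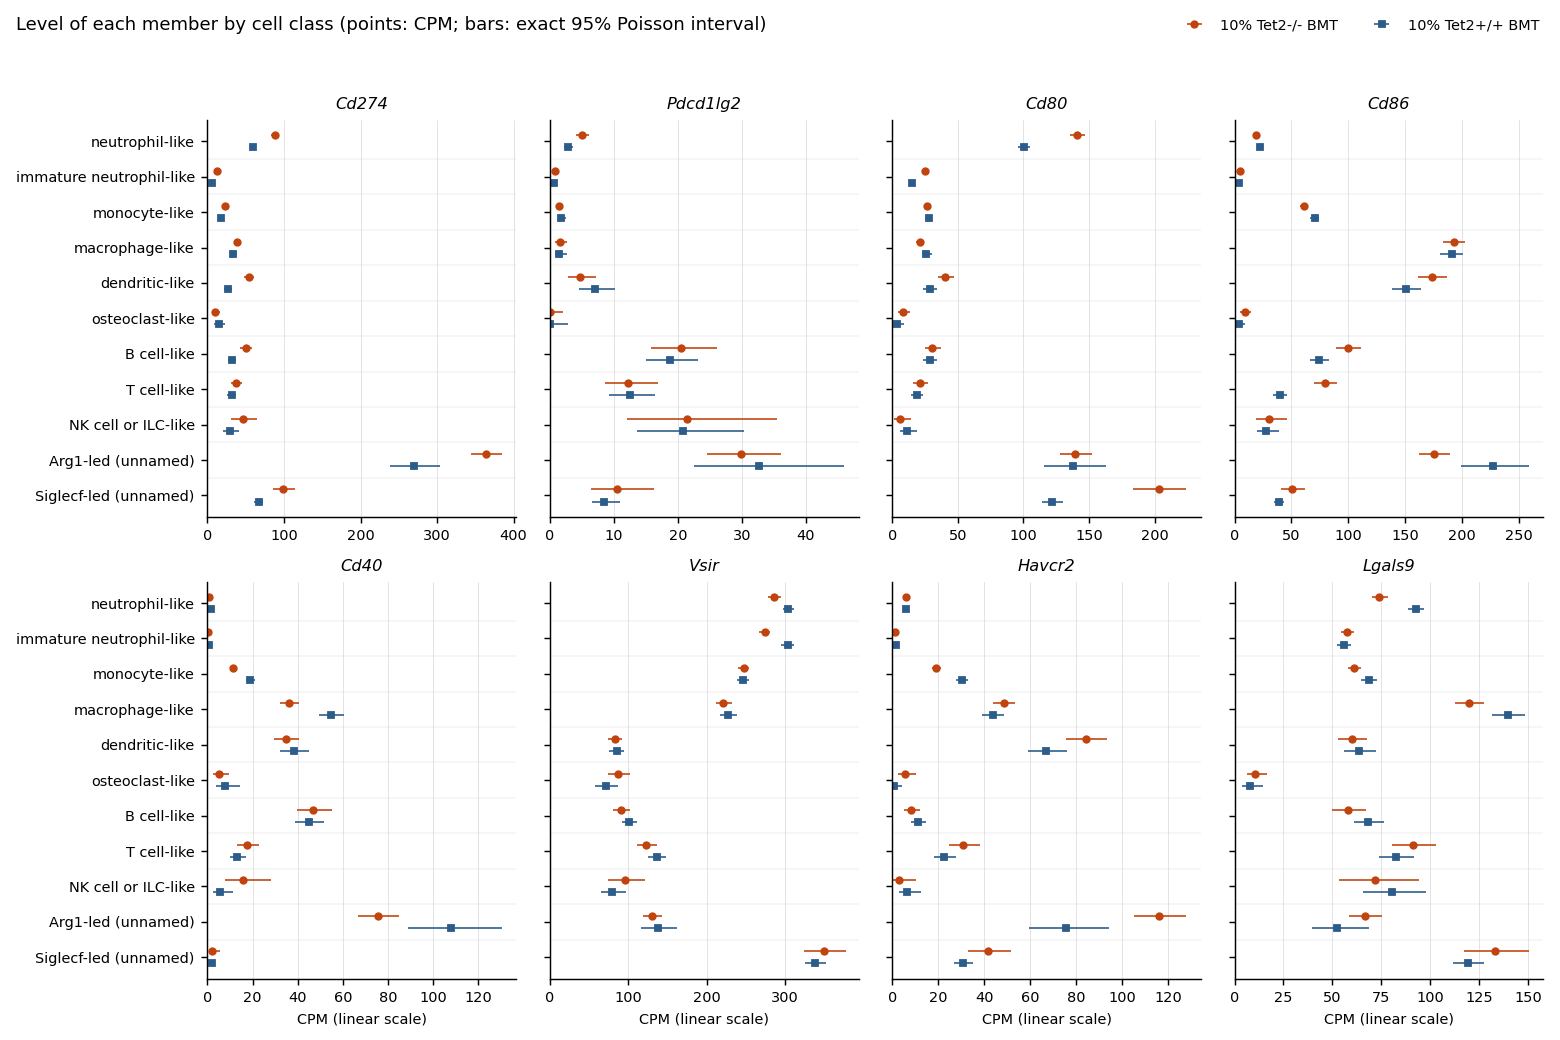
Level of each gene in CPM (horizontal axis, linear, scale set per gene) in 9 named classes and in the unnamed Arg1-led and Siglecf-led clusters, with 10% Tet2-/- BMT as circles above 10% Tet2+/+ BMT as squares and exact 95% Poisson intervals as bars. Cd274 and Cd80 stand highest among named classes in neutrophil-like cells, and the Arg1-led cluster exceeds all of these for Cd274.

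Over all kept cells, 5 of the 8 genes met the minimum and 0 of them passed the size rule. The background was 1.87% of 2669 genes higher and 1.27% lower in 10% Tet2-/- BMT. Cd274 came closest, at 55.7 CPM in 10% Tet2-/- BMT and 36.2 CPM in 10% Tet2+/+ BMT, a ratio of 1.54 (1.47 to 1.61) and a log2 ratio of 0.51 with 10 CPM added. This sum also follows the mix of cells. With each of the 29 clusters given the same weight in both libraries (an equal mix), Cd274 was at 53.1 CPM in 10% Tet2-/- BMT and 38.8 CPM in 10% Tet2+/+ BMT, a ratio of 1.37 (1.30 to 1.44, by a normal approximation).

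The other genes differed less over all cells. Cd80 was at 60.5 CPM in 10% Tet2-/- BMT and 52.0 CPM in 10% Tet2+/+ BMT (ratio 1.16, or 1.32 at an equal mix). Cd86 was at 62.6 CPM in 10% Tet2-/- BMT and 54.7 CPM in 10% Tet2+/+ BMT, and its ratio of 1.14 went to 1.01 at an equal mix. Lgals9 was at 70.4 CPM in 10% Tet2-/- BMT and 81.5 CPM in 10% Tet2+/+ BMT, and its ratio of 0.864 went to 0.972. The Cd86 and Lgals9 ratios were thus near 1 once both libraries had the same mix of clusters.

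In neutrophil-like cells, 4 genes met the minimum and 0 passed the size rule, against a background of 2.55% of 2232 genes higher and 2.6% lower. The Cd274 ratio was 1.49 (1.38 to 1.60) and the Cd80 ratio 1.40 (1.32 to 1.49). The Lgals9 ratio was 0.798 (0.744 to 0.857) and the Vsir ratio 0.941 (0.907 to 0.977). The median log2 ratio of all eligible genes in this class was -0.08, so relative to it the Cd274 and Cd80 differences were somewhat larger.

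At an equal mix of the 6 neutrophil clusters the Cd274 ratio was 1.23 (1.13 to 1.34), the Cd80 ratio 1.34 (1.26 to 1.43) and the Lgals9 ratio 0.973 (0.903 to 1.05). Free RNA moved with Cd274: in barcodes with 1 to 50 UMIs it was at 51.8 CPM in 10% Tet2-/- BMT and 33.3 CPM in 10% Tet2+/+ BMT, a ratio of 1.56 (1.15 to 2.12). Cd80 in those barcodes was at 43.6 CPM in 10% Tet2-/- BMT and 56.6 CPM in 10% Tet2+/+ BMT, a ratio of 0.770 (0.585 to 1.01), but in barcodes with 51 to 200 UMIs it was at 65.5 CPM in 10% Tet2-/- BMT and 41.0 CPM in 10% Tet2+/+ BMT. Sex-typed cells also differed. Neutrophil-like cells of 10% Tet2-/- BMT with Xist alone had 71.5 CPM of Cd274 (823 cells) and those with Y-linked transcripts alone 109.7 CPM (171 cells), against 61.8 CPM in 10% Tet2+/+ BMT cells with Y-linked transcripts alone (2600 cells). The part of free RNA and of sex in the ratios was not tested.

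Immature neutrophil-like cells had 2 genes above the minimum, Vsir and Lgals9, and 0 past the size rule, against a background of 3.71% higher and 0.666% lower. Cd274 and Cd80 lay below the minimum there, with ratios of 2.23 (1.73 to 2.88) and 1.67 (1.43 to 1.96), in a class whose median gene had a log2 ratio of 0.14. Of 8 erythroid markers, 4 were higher in 10% Tet2-/- BMT immature neutrophil-like cells and 0 lower, with a summed level of 611 CPM in 10% Tet2-/- BMT and 15.3 CPM in 10% Tet2+/+ BMT, and their part in these ratios was not tested. In monocyte-like cells 3 genes met the minimum and 0 passed, with a background of 1.78% higher and 1.24% lower. Cd40, at 11.3 CPM in 10% Tet2-/- BMT and 19.0 CPM in 10% Tet2+/+ BMT, and Havcr2, at 19.1 CPM in 10% Tet2-/- BMT and 30.4 CPM in 10% Tet2+/+ BMT, were below that minimum, with levels 1.68-fold and 1.59-fold lower in 10% Tet2-/- BMT.

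In macrophage-like cells 4 genes met the minimum and 0 passed, with a background of 0.754% higher and 1.58% lower. Cd40 was 1.51-fold lower in 10% Tet2-/- BMT (1.30 to 1.76), which with 10 CPM added is a log2 ratio of -0.49 and inside the size rule. At an equal mix of the 3 macrophage clusters the ratio was 0.658. Cd86 differed by a ratio of 1.01 (0.939 to 1.09) and Vsir by 0.973 (0.910 to 1.04). Markers of monocytes moved with the Cd40 value: 5 of 15 were lower in 10% Tet2-/- BMT macrophage-like cells and 0 higher, with a summed level of 3987 CPM in 10% Tet2-/- BMT and 5430 CPM in 10% Tet2+/+ BMT. Of 8 erythroid markers, 4 were higher in 10% Tet2-/- BMT and 0 lower, with a summed level of 1336 CPM in 10% Tet2-/- BMT and 25.6 CPM in 10% Tet2+/+ BMT, and platelet markers summed to 704 CPM in 10% Tet2-/- BMT and 397 CPM in 10% Tet2+/+ BMT. The part of these markers in the Cd40 value was not tested.

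Dendritic-like cells had 5 genes above the minimum, of which 1 passed the size rule, against a background of 1.18% of 2634 genes higher and 1.48% lower. This was Cd274, with 232 UMIs in 10% Tet2-/- BMT and 99 in 10% Tet2+/+ BMT and a ratio of 2.03 (1.60 to 2.59). In this class 3 of 14 immature neutrophil markers were lower in 10% Tet2-/- BMT and 0 higher, with a summed level of 927 CPM in 10% Tet2-/- BMT and 1435 CPM in 10% Tet2+/+ BMT. Likewise 2 of 15 monocyte markers were lower and 0 higher, with a summed level of 2939 CPM in 10% Tet2-/- BMT and 3509 CPM in 10% Tet2+/+ BMT. Free RNA in barcodes with 1 to 50 UMIs had a Cd274 ratio of 1.56 (1.15 to 2.12), in the same direction. The part of these markers and of free RNA in the Cd274 value was not tested. Havcr2 had a ratio of 1.25 (1.06 to 1.48), Cd86 of 1.15 (1.03 to 1.28) and Vsir of 0.972 (0.833 to 1.14). When each cell was thinned to 500 UMIs, 1.63% of dendritic-like cells in 10% Tet2-/- BMT (4 cells) and 2.62% in 10% Tet2+/+ BMT (6 cells) kept a Cd274 UMI, too few to read a change from. The makeup of the class also differed between libraries, as its sub-clusters show.

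In T cell-like cells Cd86 was at 79.5 CPM in 10% Tet2-/- BMT and 39.6 CPM in 10% Tet2+/+ BMT, a ratio of 2.01 (1.63 to 2.47), and was the 1 of 3 eligible genes past the size rule. The background was 1.73% higher and 1.59% lower. CD86 is chiefly a molecule of presenting cells, and in this class 7 of 16 macrophage markers were higher in 10% Tet2-/- BMT and 0 lower, with a summed level of 5897 CPM in 10% Tet2-/- BMT and 3448 CPM in 10% Tet2+/+ BMT. In the same class 5 of 15 neutrophil markers were lower and 0 higher, with a summed level of 17220 CPM in 10% Tet2-/- BMT and 25864 CPM in 10% Tet2+/+ BMT. The part of these markers in the Cd86 value was not tested. B cell-like cells had 3 eligible genes (Cd86, Vsir and Lgals9), NK cell or ILC-like cells 2, osteoclast-like cells 1 and the Iglc1-led cluster 1, and 0 of these passed the rule in either direction. The backgrounds there were 1.52% higher and 0.938% lower, 2.28% and 3.51%, 2.14% and 1.82%, and 6.87% and 11.1%. Mast cell or basophil-like and epithelial-like cells had 0 eligible members, in classes where 11% and 5.59% of eligible genes were higher and 15.3% and 11.8% lower.

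Among unnamed clusters, the Siglecf-led cluster, which held 369 cells in 10% Tet2-/- BMT and 1323 in 10% Tet2+/+ BMT and whose best marker list was neutrophil, had Cd80 at 203 CPM in 10% Tet2-/- BMT and 122 CPM in 10% Tet2+/+ BMT. Cd80, with that ratio of 1.66 (1.47 to 1.88), was the 1 of 5 eligible genes past the size rule, in a cluster with a background of 1.45% higher and 1.25% lower. In this cluster 4 of 8 erythroid markers were lower in 10% Tet2-/- BMT and 0 higher, with a summed level of 62.6 CPM in 10% Tet2-/- BMT and 1097 CPM in 10% Tet2+/+ BMT, and their part in the Cd80 value was not tested. The Obp1a-led cluster had Cd274 at 100.5 CPM in 10% Tet2-/- BMT and 58.5 CPM in 10% Tet2+/+ BMT, a ratio of 1.72 (1.21 to 2.48), past the rule against 2.28% higher and 4.96% lower. In the cluster led by Ccl8 and Cstdc5, Cd80 was at 139 CPM in 10% Tet2-/- BMT and 67.4 CPM in 10% Tet2+/+ BMT, from 70 and 48 UMIs, past the rule against 4.42% higher and 3.44% lower.

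**Figure D2:**
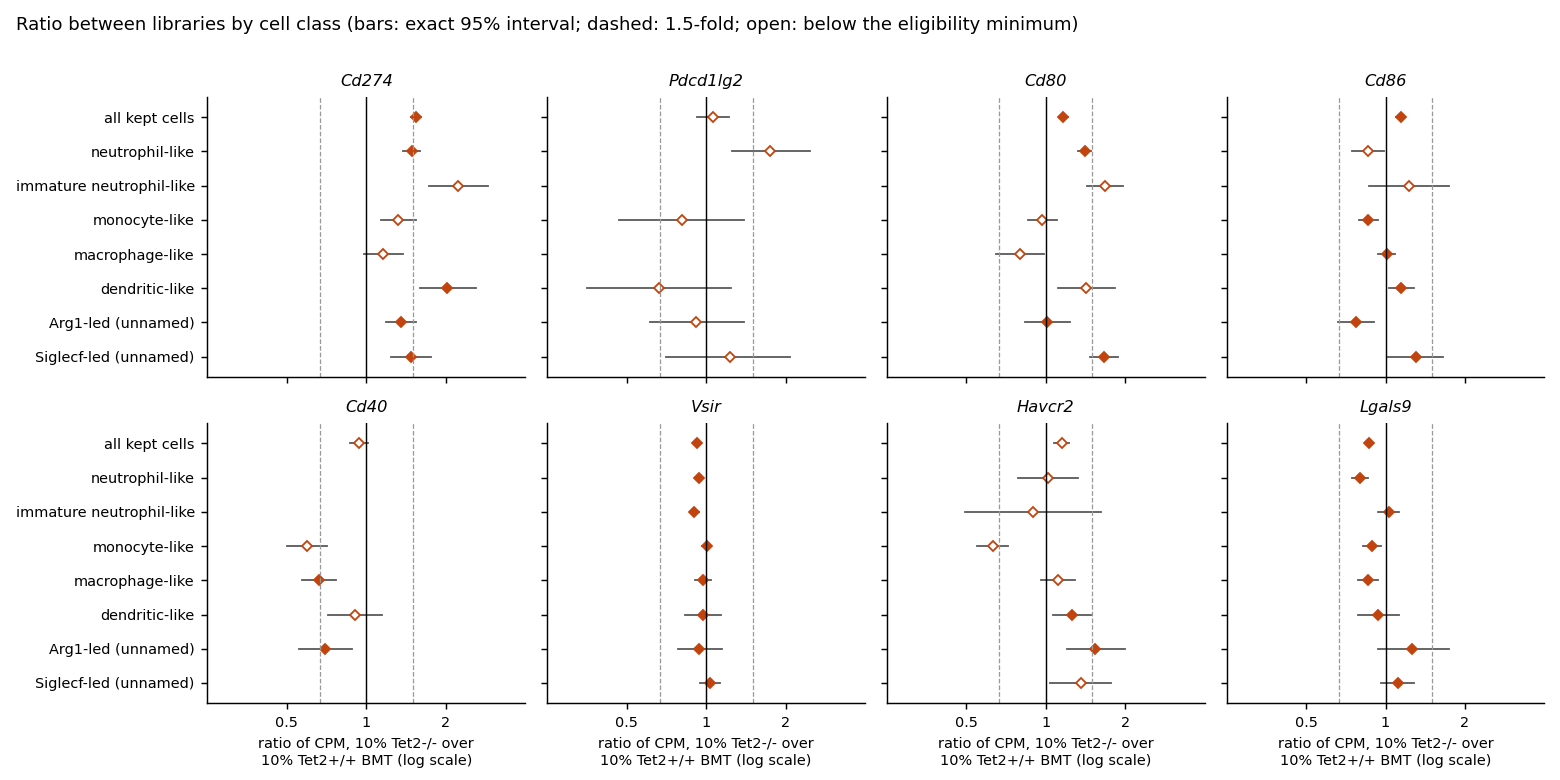
Ratio of CPM, 10% Tet2-/- BMT over 10% Tet2+/+ BMT (horizontal axis, log scale), for each gene in all kept cells, 5 named classes and 2 unnamed clusters, with exact 95% intervals as bars, dashed lines at 1.5-fold and open symbols below the eligibility minimum. Classes in which a gene had under 20 UMIs in a library are left out. Cd274 lies to the right of 1 in every class drawn, and Cd40 in macrophage-like cells to the left of it.

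Within neutrophils, Cd274 and Cd80 had different maxima. The Ccl3-led cluster, named for a chemokine of activated neutrophils, had Cd274 at 269 CPM (249 to 289) in 10% Tet2-/- BMT and 252 CPM (221 to 287) in 10% Tet2+/+ BMT. The Ifit1-led cluster, of cells with interferon-induced transcripts, had 211 CPM (176 to 251) in 10% Tet2-/- BMT and 144 CPM (129 to 160) in 10% Tet2+/+ BMT. The Retnlg-led cluster, named for a transcript abundant in blood neutrophils, had 12.9 CPM in 10% Tet2-/- BMT and 10.6 CPM in 10% Tet2+/+ BMT. The neutrophil-like class of each library thus spanned a wide range of Cd274. The ratio between libraries was 1.06 (0.916 to 1.24) in the Ccl3-led cluster and 1.46 (1.18 to 1.80) in the Ifit1-led cluster. The Ccl3-led cluster held 630 cells in 10% Tet2-/- BMT and 230 in 10% Tet2+/+ BMT.

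Among the 6 neutrophil clusters, Cd80 was highest in the Acod1-led cluster in 10% Tet2-/- BMT and in the Csf3r-led cluster in 10% Tet2+/+ BMT. The Acod1-led cluster had 225 CPM in 10% Tet2-/- BMT and 161 CPM in 10% Tet2+/+ BMT, a ratio of 1.39 (1.25 to 1.56). The Csf3r-led cluster had 195 CPM in 10% Tet2-/- BMT and 173 CPM in 10% Tet2+/+ BMT, and the Ccl3-led cluster 171 CPM in 10% Tet2-/- BMT and 143 CPM in 10% Tet2+/+ BMT. The Retnlg-led cluster had the lowest level, 58.7 CPM in 10% Tet2-/- BMT and 32.9 CPM in 10% Tet2+/+ BMT, and the largest Cd80 ratio of the 6 clusters, 1.78 (1.49 to 2.13). Both Cd274 and Cd80 were higher in 10% Tet2-/- BMT in 6 of 6 neutrophil clusters. Of the 2232 genes eligible for the size rule in neutrophil-like cells, all of which had 20 or more UMIs over both libraries in each of these clusters, 12.5% were higher in all 6 and 15.1% lower in all 6.

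Over all clusters in which a gene had 20 or more UMIs, Cd274 was higher in 10% Tet2-/- BMT in 23 of 26 and Cd80 in 20 of 23. Of 2639 genes counted in at least 20 clusters, 1.82% were higher in a share of clusters at least as large as that of Cd274. The 3 clusters in which Cd274 was lower were the immunoglobulin-rich Iglc1-led cluster, the cycling Stmn1-led monocyte-like cluster and the osteoclast-like Ctsk-led cluster, with 21.4, 7.98 and 10.1 CPM in 10% Tet2-/- BMT and 21.5, 9.21 and 14.8 CPM in 10% Tet2+/+ BMT. The largest Cd274 ratio, 2.87 (1.91 to 4.47), was in the immature neutrophil-like cluster led by Ltf and Wfdc21, at 44.5 CPM in 10% Tet2-/- BMT and 15.5 CPM in 10% Tet2+/+ BMT. For the rest the directions were mixed, with Cd86 higher in 13 of 27, Vsir in 12 of 28, Lgals9 in 13 of 27, Havcr2 in 7 of 17, Cd40 in 4 of 11 and Pdcd1lg2 in 7 of 11. Clusters of a library share its preparation, so these counts are not independent.

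Vsir was highest in the neutrophil cluster where Cd274 was lowest, and lowest where Cd274 was highest. It was at 399 CPM in 10% Tet2-/- BMT and 406 CPM in 10% Tet2+/+ BMT in the Retnlg-led cluster, and at 114 CPM in 10% Tet2-/- BMT and 109 CPM in 10% Tet2+/+ BMT in the Ccl3-led cluster. The immature cluster led by Ltf and Ifitm6 had 375 CPM in 10% Tet2-/- BMT and 377 CPM in 10% Tet2+/+ BMT. Libraries differed by ratios of 0.981 to 1.08 over the 6 neutrophil clusters. Lgals9 had its maximum in the Ifit1-led cluster, at 206 CPM in 10% Tet2-/- BMT and 204 CPM in 10% Tet2+/+ BMT, followed among neutrophil-type clusters by the Siglecf-led cluster at 133 CPM in 10% Tet2-/- BMT and 119 CPM in 10% Tet2+/+ BMT. The Ifit1-led cluster held 154 cells in 10% Tet2-/- BMT and 586 in 10% Tet2+/+ BMT, and the lower Lgals9 level of the 10% Tet2-/- BMT neutrophil-like class had a ratio of 0.973 once both libraries had the same mix.

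**Figure D3:**
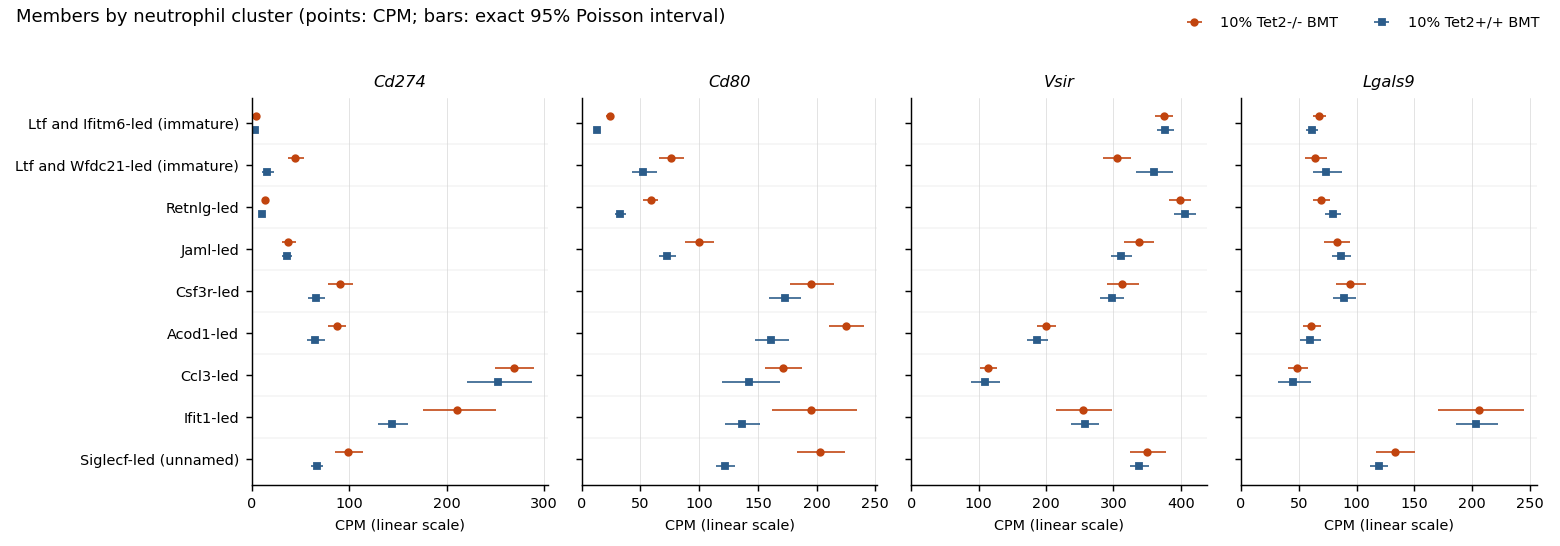
Levels of Cd274, Cd80, Vsir and Lgals9 in CPM (horizontal axis, linear) in 2 immature neutrophil-like clusters, the 6 neutrophil-like clusters and the unnamed Siglecf-led cluster, with 10% Tet2-/- BMT as circles above 10% Tet2+/+ BMT as squares and exact 95% Poisson intervals as bars. Cd274 peaks in the Ccl3-led cluster, Vsir in the Retnlg-led cluster and Lgals9 in the Ifit1-led cluster in both libraries, while Cd80 does not peak in the same cluster in both.

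Monocyte-like clusters differed too. The Ace-led cluster, which resembles patrolling monocytes by that transcript, had Cd274 at 81.7 CPM in 10% Tet2-/- BMT and 45.7 CPM in 10% Tet2+/+ BMT, a ratio of 1.79 (1.46 to 2.20), and Havcr2 at 65.7 CPM in 10% Tet2-/- BMT and 87.4 CPM in 10% Tet2+/+ BMT. The Fn1-led cluster, with classical monocyte transcripts, had Cd274 at 17.5 CPM in 10% Tet2-/- BMT and 9.48 CPM in 10% Tet2+/+ BMT. Havcr2 there was at 14.6 CPM in 10% Tet2-/- BMT and 17.1 CPM in 10% Tet2+/+ BMT. Both Cd274 and Havcr2 were thus higher in the Ace-led than in the Fn1-led cluster of each library.

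The highest Cd274 level of any cluster was in the unnamed Arg1-led cluster, with 364 CPM (345 to 385) in 10% Tet2-/- BMT and 270 CPM (239 to 304) in 10% Tet2+/+ BMT. A Cd274 UMI was seen in 81.4% of its cells in 10% Tet2-/- BMT and 74.7% in 10% Tet2+/+ BMT. It held 311 cells in 10% Tet2-/- BMT and 79 in 10% Tet2+/+ BMT, and its Havcr2 level was 116 CPM in 10% Tet2-/- BMT and 75.4 CPM in 10% Tet2+/+ BMT, with a log2 ratio of 0.56. Cd86, at 175 CPM in 10% Tet2-/- BMT and 227 CPM in 10% Tet2+/+ BMT, and Cd40, at 75.4 CPM in 10% Tet2-/- BMT and 108 CPM in 10% Tet2+/+ BMT, went the other way. Of 7 eligible genes 0 passed the size rule in either direction, against a background of 7.81% higher and 8.02% lower. Haemoglobin transcripts summed to 15316 CPM in 10% Tet2-/- BMT and 10117 CPM in 10% Tet2+/+ BMT in this cluster, and 6 of 15 neutrophil markers were higher in 10% Tet2-/- BMT and 0 lower, with a summed level of 20995 CPM in 10% Tet2-/- BMT and 18271 CPM in 10% Tet2+/+ BMT. Their part in the values was not tested.

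That cluster was mixed. Sub-clustering the dendritic-like class and the Arg1-led cluster together gave 9 sub-clusters. The Arg1-led cluster was made chiefly of an Spp1-led sub-cluster (112 cells in 10% Tet2-/- BMT and 24 in 10% Tet2+/+ BMT), a Thbs1-led sub-cluster (113 and 20) and mature Ccr7 dendritic-like cells (54 and 28), a type that carries antigen towards lymph nodes. The dendritic-like class held 0 cells of these 3. It consisted mostly of conventional dendritic type 2-like cells (81 in 10% Tet2-/- BMT and 113 in 10% Tet2+/+ BMT), a Plet1-led sub-cluster (83 and 54) and conventional dendritic type 1-like cells (40 and 23).

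Mature Ccr7 dendritic-like cells carried several of the 8 genes at high levels. Cd274 was at 338 CPM (301 to 379) in 10% Tet2-/- BMT and 284 CPM (234 to 342) in 10% Tet2+/+ BMT, Cd86 at 347 CPM in 10% Tet2-/- BMT and 251 CPM in 10% Tet2+/+ BMT, and Cd40 at 208 CPM in 10% Tet2-/- BMT and 187 CPM in 10% Tet2+/+ BMT. Pdcd1lg2 had its highest level here, 65.1 CPM (49.3 to 84.3) in 10% Tet2-/- BMT and 51.2 CPM (31.3 to 79.1) in 10% Tet2+/+ BMT. Intervals of the 2 libraries overlapped for Cd274, Pdcd1lg2, Cd80 and Cd40, while the Cd86 ratio was 1.38 (1.10 to 1.76). Havcr2 was at 59.4 CPM in 10% Tet2-/- BMT and 10.2 CPM in 10% Tet2+/+ BMT, from 52 and 4 UMIs, a ratio of 5.80 (2.13 to 22.1). The leading genes of this sub-cluster also included the immunoglobulin transcripts Igha, Igkc and Jchain.

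The Thbs1-led sub-cluster had Cd274 at 492 CPM (452 to 535) in 10% Tet2-/- BMT and 280 CPM (212 to 362) in 10% Tet2+/+ BMT, a ratio of 1.76 (1.34 to 2.35). This was the highest level of the 9 sub-clusters in 10% Tet2-/- BMT, while in 10% Tet2+/+ BMT it lay beside that of mature Ccr7 dendritic-like cells. Its Havcr2 level was the highest in each library, 187 CPM in 10% Tet2-/- BMT and 232 CPM in 10% Tet2+/+ BMT. Its Cd86 level was 120 CPM in 10% Tet2-/- BMT and 261 CPM in 10% Tet2+/+ BMT, 2.18-fold lower in 10% Tet2-/- BMT (1.56 to 3.01). Its Cd80 level was 136 CPM in 10% Tet2-/- BMT and 212 CPM in 10% Tet2+/+ BMT, and the 10% Tet2+/+ BMT values rest on 20 cells. Lgals9 was at 85.5 CPM in 10% Tet2-/- BMT and 38.6 CPM in 10% Tet2+/+ BMT, from 98 and 8 UMIs, a ratio of 2.22 (1.08 to 5.28). The shares of cells with a UMI of either CD28 ligand had intervals that overlapped between the libraries. A Cd80 UMI was seen in 63.7% of cells (54.1 to 72.6) in 10% Tet2-/- BMT and 55% (31.5 to 76.9) in 10% Tet2+/+ BMT, and a Cd86 UMI in 49.6% (40.0 to 59.1) in 10% Tet2-/- BMT and 60% (36.1 to 80.9) in 10% Tet2+/+ BMT, at median depths of 9990 and 10054 UMIs.

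Within the dendritic-like class, most Cd274 UMIs of any sub-cluster were in the Plet1-led sub-cluster. It had 99.6 CPM (151 UMIs) in 10% Tet2-/- BMT and 50.2 CPM (46 UMIs) in 10% Tet2+/+ BMT, a ratio of 1.98 (1.42 to 2.82). This sub-cluster gave 63.8% of the Cd274 UMIs of the class in 10% Tet2-/- BMT and 46.5% in 10% Tet2+/+ BMT, and made up 33.9% of its cells in 10% Tet2-/- BMT and 23.6% in 10% Tet2+/+ BMT. Conventional dendritic type 2-like cells had 10.4 CPM in 10% Tet2-/- BMT and 7.81 CPM in 10% Tet2+/+ BMT, and type 1-like cells 15.5 CPM in 10% Tet2-/- BMT and 18.0 CPM in 10% Tet2+/+ BMT, each from 10 to 14 UMIs. The Retnlg-led sub-cluster, partly of Arg1-led cells, had 159 CPM in 10% Tet2-/- BMT and 80.7 CPM in 10% Tet2+/+ BMT, a ratio of 1.97 (1.37 to 2.88). In the dendritic-like class itself, Retnlg-led cells held 22 Cd274 UMIs in 10% Tet2-/- BMT and 15 in 10% Tet2+/+ BMT. Cxcl9-led cells of the class held 35 in 10% Tet2-/- BMT and 15 in 10% Tet2+/+ BMT. At an equal mix of the sub-clusters the log2 ratio of the class was 0.63, against 0.81 as the libraries stood.

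Conventional dendritic type 1-like cells, which present antigen to CD8 T cells, had Havcr2 at 124 CPM in 10% Tet2-/- BMT and 126 CPM in 10% Tet2+/+ BMT, and Cd86 at 163 CPM in 10% Tet2-/- BMT and 204 CPM in 10% Tet2+/+ BMT. Their Cd40 level was 7.74 CPM in 10% Tet2-/- BMT and 36.0 CPM in 10% Tet2+/+ BMT, from 7 and 20 UMIs. Cd40 was also high in the small Cxcl9-led sub-cluster, which expresses interferon-induced chemokines, at 209 CPM in 10% Tet2-/- BMT and 157 CPM in 10% Tet2+/+ BMT from 18 and 12 cells. Lgals9 was highest there as well, at 164 CPM in 10% Tet2-/- BMT and 181 CPM in 10% Tet2+/+ BMT.

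**Figure D4:**
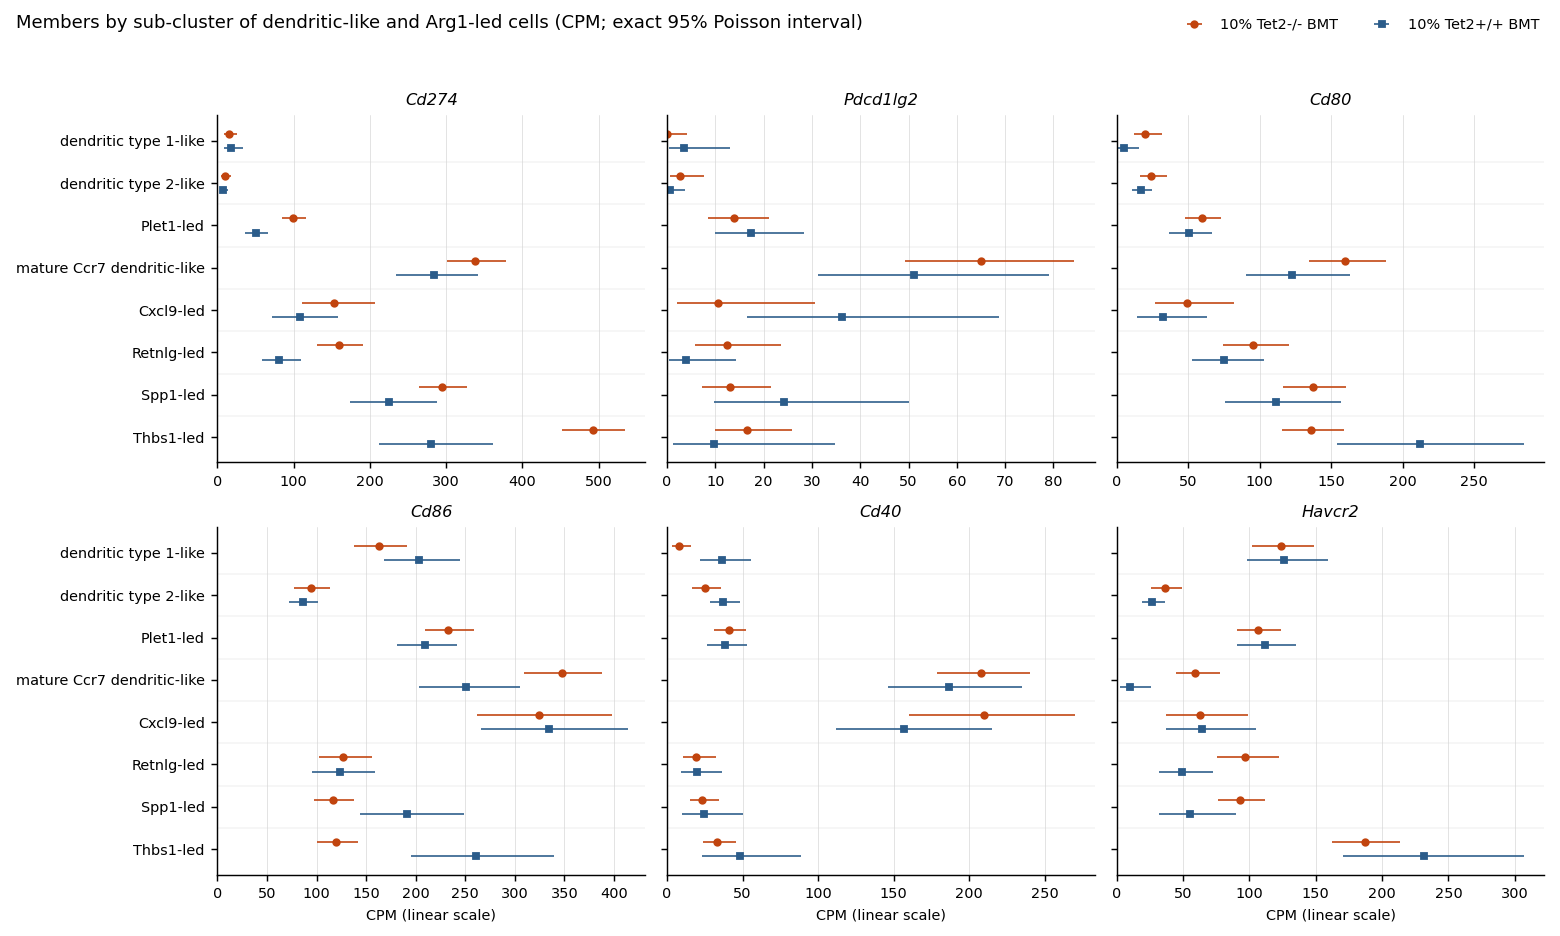
Levels in CPM (horizontal axis, linear) of 6 genes in 8 sub-clusters of dendritic-like and Arg1-led cells, with 10% Tet2-/- BMT as circles above 10% Tet2+/+ BMT as squares and exact 95% Poisson intervals as bars. Cd274 is highest in the Thbs1-led sub-cluster of 10% Tet2-/- BMT, Pdcd1lg2 in mature Ccr7 dendritic-like cells of both libraries, and Cd86 in the Thbs1-led sub-cluster is lower in 10% Tet2-/- BMT than in 10% Tet2+/+ BMT.

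Single cells carried some of these transcripts together. In mature Ccr7 dendritic-like cells, 50% of cells in 10% Tet2-/- BMT (27 of 54) and 39.3% in 10% Tet2+/+ BMT (11 of 28) had UMIs of both Cd274 and Pdcd1lg2. No cell there had Pdcd1lg2 without Cd274 in either library, but 50 of the 54 and 24 of the 28 cells had a Cd274 UMI, so few cells could have shown it. Cd86 and Cd40 were seen together in 64.8% of these cells in 10% Tet2-/- BMT and 53.6% in 10% Tet2+/+ BMT. In neutrophil-like cells the Cd86 and Cd40 pair was seen in 0 cells in 10% Tet2-/- BMT, which allows a share of up to 0.0748% (3 of 4011 cells), and in 2 of 4909 cells in 10% Tet2+/+ BMT.

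Cd274 and Cd80 were seen together in 9.35% (8.47 to 10.3) of neutrophil-like cells in 10% Tet2-/- BMT and 5.11% (4.51 to 5.77) in 10% Tet2+/+ BMT. Of neutrophil-like cells with a Cd274 UMI, 47.5% in 10% Tet2-/- BMT and 33.3% in 10% Tet2+/+ BMT also had Cd80, while of those without Cd274, 35.6% in 10% Tet2-/- BMT and 27.1% in 10% Tet2+/+ BMT had it. These shares were not matched for depth per cell. A cell without a UMI may still hold the transcript.

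Partners of these molecules were read in T cell-like cells. In T cell-like cells, Cd28 was at 149 CPM in 10% Tet2-/- BMT and 172 CPM in 10% Tet2+/+ BMT and Ctla4 at 159 CPM in 10% Tet2-/- BMT and 189 CPM in 10% Tet2+/+ BMT. Pdcd1, which encodes PD-1, was at 26.8 CPM in 10% Tet2-/- BMT and 31.1 CPM in 10% Tet2+/+ BMT, and Cd40lg, the CD40 ligand, at 23.1 CPM in 10% Tet2-/- BMT and 34.1 CPM in 10% Tet2+/+ BMT, both below the minimum and named for their role. Of the 8 listed receptors, 4 were eligible in this class and 0 passed the size rule, with a median log2 ratio of -0.18 beside -0.0044 for all eligible genes. The class background was 1.73% higher and 1.59% lower. The 4 eligible receptor genes, Cd28, Ctla4, Selplg and Itga4, were all lower in 10% Tet2-/- BMT by less than the rule asks. Of the same 8 listed receptors, 3 were eligible in neutrophil-like cells and 3 in monocyte-like cells. In monocyte-like cells these included Itga4, which also served as a marker for naming that class. Cd28 was eligible in neither class. These counts alone do not place Pdcd1 or Ctla4 in myeloid cells.

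Genes known to act upstream of Cd274 were taken as lists. Of 12 listed genes of CD40 signalling and NF-kB, 6 were eligible in neutrophil-like cells, 1 was higher in 10% Tet2-/- BMT past the size rule and 0 lower, with a median log2 ratio of 0.39 beside -0.08 for all eligible genes. The background in this class was 2.55% of 2232 genes higher and 2.6% lower. The gene past the rule was Traf1, an adaptor of TNF receptors, at 108 CPM in 10% Tet2-/- BMT and 58.6 CPM in 10% Tet2+/+ BMT, a ratio of 1.85 (1.72 to 1.99). Nfkbia, the NF-kB inhibitor that NF-kB itself induces, was at 3443 CPM in 10% Tet2-/- BMT and 2403 CPM in 10% Tet2+/+ BMT, and the subunit gene Rel at 144 CPM in 10% Tet2-/- BMT and 106 CPM in 10% Tet2+/+ BMT. The mix of neutrophil clusters differed between the libraries, with 630 cells in 10% Tet2-/- BMT and 230 in 10% Tet2+/+ BMT in the Ccl3-led cluster and 154 in 10% Tet2-/- BMT and 586 in 10% Tet2+/+ BMT in the Ifit1-led cluster. The part of this mix in the list values of neutrophil-like cells was not tested.

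Of 12 listed genes from interferon-gamma to PD-L1, 10 were eligible in neutrophil-like cells and 0 passed the rule in either direction, with a median log2 ratio of -0.26. The class background was 2.55% higher and 2.6% lower. Irf9, a subunit of the interferon response complex, was at 44.5 CPM in 10% Tet2-/- BMT and 68.9 CPM in 10% Tet2+/+ BMT. Irf1, which binds the Cd274 promoter in human cells, was at 107 CPM in 10% Tet2-/- BMT and 141 CPM in 10% Tet2+/+ BMT. Of 8 listed genes that set the stability of PD-L1 protein, 5 were eligible and 0 passed, with Cmtm6, which protects PD-L1 from degradation, at 165 CPM in 10% Tet2-/- BMT and 210 CPM in 10% Tet2+/+ BMT.

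In dendritic-like cells, 7 genes of the CD40 and NF-kB list were eligible and 1 passed the rule: Rel, at 328 CPM in 10% Tet2-/- BMT and 207 CPM in 10% Tet2+/+ BMT, a ratio of 1.59 (1.45 to 1.73). Of the 11 eligible interferon-gamma list genes 0 passed. The background in dendritic-like cells was 1.18% of 2634 genes higher and 1.48% lower. The part of the mix of sub-clusters in the Rel value was not tested. In the Arg1-led cluster, 1 gene of the CD40 and NF-kB list was higher (Nfkb1, at 453 CPM in 10% Tet2-/- BMT and 247 CPM in 10% Tet2+/+ BMT) and 2 were lower, Relb at 143 CPM in 10% Tet2-/- BMT and 276 CPM in 10% Tet2+/+ BMT and Map3k14 at 54.4 CPM in 10% Tet2-/- BMT and 91.2 CPM in 10% Tet2+/+ BMT. The background in the Arg1-led cluster was 7.81% higher and 8.02% lower. Relb and Map3k14 belong to the non-canonical NF-kB branch downstream of CD40.

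Of the cytokine list, 3 of 6 genes eligible in that cluster were higher in 10% Tet2-/- BMT and 0 lower, against the cluster's background of 7.81% higher and 8.02% lower, with a median log2 ratio of 0.53 beside -0.02. Il10 was at 60.0 CPM in 10% Tet2-/- BMT and 11.9 CPM in 10% Tet2+/+ BMT, Il6 at 90.4 CPM in 10% Tet2-/- BMT and 44.6 CPM in 10% Tet2+/+ BMT, and Il1b at 13152 CPM in 10% Tet2-/- BMT and 8229 CPM in 10% Tet2+/+ BMT. Of 9 eligible other inhibitory receptors and ligands in the cluster, 1 was higher past the size rule, at a log2 ratio of 0.61, and 1 lower. The lower was Cd200, whose protein restrains myeloid cells, at 63.1 CPM in 10% Tet2-/- BMT and 144 CPM in 10% Tet2+/+ BMT. Of 2 eligible TNF family costimulators, 0 were higher and 1 lower. This was Tnfrsf9, the costimulatory receptor 4-1BB, at 38.5 CPM in 10% Tet2-/- BMT and 85.3 CPM in 10% Tet2+/+ BMT. Mature Ccr7 dendritic-like cells made up 17.4% of the cluster in 10% Tet2-/- BMT and 35.4% in 10% Tet2+/+ BMT, and the part of this mix in the cluster's values was not tested.

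For each of the 8 genes, the 3 genes with the most similar levels were ranked by Pearson's r of log2 CPM, with 10 CPM added, over 22 points from 11 classes in 2 libraries. Points of a library share its depth and preparation, so r is a description only. Kpna4 (r = 0.87), Ier5 (0.85) and Ppp1r15a (0.84) were nearest to Cd274, and Cass4 (0.94), Med13l (0.94) and Map3k3 (0.89) to Cd80. Ly86 (0.96), H2-Aa (0.94) and Unc93b1 (0.94) were nearest to Cd86, and H2-M3 (0.89), H2-Ab1 (0.89) and Ciita (0.88) to Cd40, where H2-Aa and H2-Ab1 encode MHC class II chains.

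Fgd4 (r = 0.89), Itgam (0.88) and Pirb (0.86) were nearest to Vsir, Itgam being the gene of CD11b. Pip4k2a (0.88), Zfp385a (0.88) and Clec4b1 (0.87) were nearest to Havcr2, and Celf2 (0.87), Sp100 (0.86) and Arhgap30 (0.82) to Lgals9. Tespa1 (0.91), Rfx7 (0.90) and Trim5 (0.90) were nearest to Pdcd1lg2, for which several points rest on fewer than 20 UMIs.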

How the data were processed

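Gingival CD11b+ cells were profiled with droplet-based 3' single-cell RNA sequencing, in 1 library per group. The authors deposited raw UMI counts for unfiltered barcodes. The counts came from Cell Ranger 6.1.2 with mm10, per the submitters' processing notes, whereas the matrix header names another release. The libraries held 93919724 UMIs in 10% Tet2-/- BMT and 100782700 UMIs in 10% Tet2+/+ BMT, of which 90.8% and 87.2% lay in the kept cells. Their number limits precision as the intervals show.

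Cells were clustered jointly (scanpy 1.11.5, leidenalg 0.10.2) on 2000 variable genes without the 8 members, with 30 components, 20 neighbours and resolution 1. To be named "like" a type, a cluster needed at least 3 markers at a log2 difference of 0.5 or more. Each marker had to be in at least 10% of the cluster's cells. These conditions, and leaving the Arg1-led cluster unnamed, were set after seeing the data, so names may differ from those of the study. Meeting them did not give a name where the top genes pointed elsewhere. The Siglecf-led cluster (5 neutrophil markers) stayed unnamed because, of its 10 top genes, 1 (Siglecf) was an eosinophil marker and 0 were neutrophil markers. The eosinophil markers Epx, Ear1 and Ear6 had 0 UMIs there in both libraries. Top genes of the Ccl8 and Cstdc5-led cluster (12) favoured macrophages, and gland secretory genes led the Obp1a-led cluster (9). The neutrophil-like class therefore leaves these clusters out. Scrublet, at an expected 8% of doublets, marked 1 and 0 cells and had not worked, so doublets were not removed. Free RNA was read from barcodes with 1 to 50 and 51 to 200 UMIs. Where it was subtracted, its share of a class in a library was set from haemoglobin transcripts and capped at 50%.

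UMIs were summed per class and library and scaled to CPM. No test across samples was possible with 1 library per group. Members and lists were chosen with earlier results of these data known. In each list, up to 4 eligible genes with the largest absolute log2 ratio in a class were named, and for each member the 3 genes of highest correlation among 5630. Only the ratios, the size rule and the ratio intervals were tested on simulated data, as summed counts. Alternatives covered scaling, pseudocount, filters, clustering, thinning, free RNA, sex-typed cells and the mix of clusters. After seeing the data, 4 were added: leaving out the cycling Stmn1-led cluster, leaving out clusters under 1500 median UMIs, adding the Arg1-led cluster to the dendritic-like class, and an equal mix of its sub-clusters.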

Additional observations from a re-analysis of the deposited data

How the results depend on the processing

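No paired analysis was possible because each group had 1 library and the labels carry no replicate numbers. The log2 ratio of Cd274 stayed above 0 in all 23 settings over all kept cells (0.35 to 0.76, against 0.51 as reported) and in all 23 in neutrophil-like cells (0.18 to 0.74, against 0.50). Over all kept cells it was 0.61 with a pseudocount of 1 CPM, 0.35 for Xist-carrying against Y-carrying cells, 0.76 for Y-carrying cells of both libraries and 0.37 at an equal mix of clusters. In neutrophil-like cells it was 0.62 at resolution 0.5, 0.62 with the members among the clustering genes, 0.36 and 0.38 with free RNA of 1 to 50 and of 51 to 200 UMIs subtracted, 0.18 for Xist-carrying against Y-carrying cells, 0.74 for Y-carrying cells of both libraries and 0.27 at an equal mix. Cd80 in neutrophil-like cells (0.45 as reported) was 0.54 with median-of-ratios scaling, 0.20 with free RNA of 51 to 200 UMIs subtracted, 0.26 for Xist-carrying against Y-carrying cells and 0.25 for Y-carrying cells of both libraries. The share subtracted from neutrophil-like cells was unequal. It was 17.3% in 10% Tet2-/- BMT and 33.6% in 10% Tet2+/+ BMT for 1 to 50 UMIs. For 51 to 200 UMIs it was 36.6% in 10% Tet2-/- BMT and the cap of 50% in 10% Tet2+/+ BMT. Cd274 in dendritic-like cells (0.81) reversed to -0.74 when cells were thinned to 500 UMIs, where 4 and 6 cells kept a UMI. It was above 0 in the other 23 settings, and 0.63 at an equal mix of sub-clusters.

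The number of members past 1.5-fold, 0 over all kept cells as reported, was 1 with free RNA of 1 to 50 UMIs subtracted, 1 with a pseudocount of 1 CPM and 2 for Y-carrying cells of both libraries. In dendritic-like cells (1) it was 2 with libraries clustered alone, 0 with a mean of per-cell CPM, 4 when thinned, 3 for Y-carrying cells, and 2 each with unnamed clusters added to their best class and with the Arg1-led cluster added. In neutrophil-like cells (0) it was 1 each at resolution 0.5, with members among the clustering genes, with median-of-ratios scaling and for Y-carrying cells. In macrophage-like cells (0) it was 1 with libraries clustered alone, 1 when thinned and 2 with free RNA of 51 to 200 UMIs subtracted, and in immature neutrophil-like cells (0) it was 1 for Y-carrying cells. Members highest in dendritic-like cells (1) numbered 3 at resolution 2, with libraries clustered alone, with unnamed clusters added or with the Arg1-led cluster added, and 2 with members among the clustering genes. The cause of these moves was not tested. With free RNA of 1 to 50 UMIs, the share subtracted from all kept cells was 48.7% in 10% Tet2-/- BMT and 50% in 10% Tet2+/+ BMT. With 51 to 200 UMIs, the share subtracted from macrophage-like cells was 50% in 10% Tet2-/- BMT and 4.99% in 10% Tet2+/+ BMT. Cd40 in macrophage-like cells was below 0 in 22 of 23 settings (0.70 when thinned), and Lgals9 in neutrophil-like cells in all 23. Genes under about 20 UMIs in a class, such as Pdcd1lg2 in immature neutrophil-like and macrophage-like cells, are limited by depth.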
